A study of Mus musculus with 550 samples.

Results

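The genes described here were 10 genes of glucose use and of the response to low oxygen: Slc2a1, Hk2, Pfkp, Aldoa, Pgk1, Eno1, Pkm, Ldha, Pdk1 and Ddit4. They were listed by name, and all 10 were found among the 55228 gene names of the count table. They were followed in single cells taken from embryoid bodies (EBs). EBs form when embryonic stem cells (ESCs) clump and differentiate once leukaemia inhibitory factor is withdrawn. The EBs came from E14 mouse ESCs (strain 129/Ola) of 3 genotypes: wild type (WT), homozygous Dnmt3a knockout (3AKO) and homozygous Dnmt3b knockout (3BKO), each mutant lacking one of the de novo DNA methyltransferases. Cells were sorted into plates at day 3 and day 9 and profiled with a modified Smart-seq2 protocol, which reads whole transcripts without molecular identifiers. The study's methods name independent mutant clones and EBs pooled for each clone, but the labels do not tie a cell to a clone. Every genotype at each day (6 groups) therefore counted as 1 sample, no difference has a replicate check, and no test over cells was run.

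Of 550 cells, 486 had at least 50000 assigned reads, at least 2000 detected genes and at most 50% mitochondrial reads, and these were used. At day 9 the filter kept 67 of 93 3BKO cells, where it kept 88 of 93 in 3AKO and 89 of 91 in WT. The kept cells gave 67 to 89 cells and 19713905 to 34821361 reads in each genotype and day, split over 2 library batches. The median mitochondrial share was 3.58% to 6.31% in the batch 1 groups and 9.09% to 13.5% in the batch 2 groups. Levels are CPM, the share of a gene per 1000000 reads, of the reads summed over the cells of a group, and intervals are exact 95% Poisson or binomial intervals, which cover counting error only. Of the 8 epiblast markers looked at, every one had reads in every genotype and day, with summed levels of 3352 to 4937 CPM. The 8 meso-endoderm markers summed to 9.0 to 75.7 CPM, and T was at 0 reads in the cells labelled 3BKO on both days.

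The targeted genes were looked at first. At day 9 Dnmt3a stood at 26.1 CPM (batch 1) and 23.9 CPM (batch 2) in 3AKO cells against 177 and 144 CPM in WT, and Dnmt3b at 15.9 and 16.8 CPM in 3BKO cells against 155 and 189 CPM in WT. Both followed the labels. At day 3 they did not in batch 2. In batch 1, Dnmt3a was 25.8 CPM in cells labelled 3AKO and 587 CPM in cells labelled 3BKO. In batch 2 it was 335 CPM in cells labelled 3AKO and 12.8 CPM in cells labelled 3BKO. Dnmt3b at day 3 lay below WT under both mutant labels, but its order between the labels also turned: it was 261 CPM (3AKO) and 167 CPM (3BKO) in batch 1, and 85.1 and 185 CPM in batch 2, where WT had 600.1 and 523 CPM. The mutant labels of day 3 batch 2 are therefore in doubt, and the day 3 mutants are described by label, by batch and by plate.

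Glycolysis splits glucose into pyruvate in the cytosol and yields ATP without oxygen. Glucose enters through transporters such as SLC2A1 (GLUT1), is trapped by hexokinases such as HK2, and is committed to the pathway by phosphofructokinases such as PFKP. ALDOA, PGK1, ENO1 and PKM carry out later steps, LDHA turns pyruvate into lactate, and PDK1 keeps pyruvate out of the mitochondria by inhibiting pyruvate dehydrogenase. DDIT4 (REDD1) restrains the growth kinase mTORC1 under stress. In low oxygen the transcription factor HIF1 raises many of these genes through DNA sites with the core ACGTG. Primed pluripotent cells, such as those of the epiblast, are known for strong glycolysis.

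The upstream sequences of the genes are shown because they share that core to different degrees. In the 250 bases before each RefSeq start site (GRCm38.p6), ACGTG on either strand (CACGT on the strand shown) was found in 8 of the 17 windows of the 10 genes, belonging to 7 genes. It was found in 16.6% of all 32851 such windows and in 24.4% of those with 10 or more CG dinucleotides. Overlapping matches, as in CACGTG, which reads alike on both strands, were counted as 1 site. The Aldoa windows with a match overlap and hold the same site, so 1 site stands behind more than 1 of the 8 windows. Of the Ldha windows, 1 held 3 sites and another held 0. Those of Pgk1 and Hk2 held 2 each, whereas 1.95% of all windows held 2 or more. No window of Eno1, Pfkp or Pdk1 held these letters. A match is a description of letters and not a measured binding site. The sequences run 5′ to 3′ on the strand of the gene and end at the base before the start site, with the matches in capitals. They are Ldha (chr7:46845554-46845803, + strand), Pgk1 (chrX:106186850-106187099, + strand), Slc2a1 (chr4:119108495-119108744, + strand), Ddit4 (chr10:59951771-59952020, - strand), Pfkp (chr13:6648772-6649021, - strand) and Pdk1 (chr2:71872974-71873223, + strand).
Ldha: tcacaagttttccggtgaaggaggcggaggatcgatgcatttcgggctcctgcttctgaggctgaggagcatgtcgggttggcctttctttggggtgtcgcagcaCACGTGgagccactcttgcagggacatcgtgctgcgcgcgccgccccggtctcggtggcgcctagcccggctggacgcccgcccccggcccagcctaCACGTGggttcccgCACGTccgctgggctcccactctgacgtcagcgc
Pgk1: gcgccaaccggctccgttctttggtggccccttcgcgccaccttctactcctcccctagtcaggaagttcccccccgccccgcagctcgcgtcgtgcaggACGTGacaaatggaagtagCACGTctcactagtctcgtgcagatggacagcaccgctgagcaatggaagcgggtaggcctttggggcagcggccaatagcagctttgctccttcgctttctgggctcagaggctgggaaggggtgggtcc
Slc2a1: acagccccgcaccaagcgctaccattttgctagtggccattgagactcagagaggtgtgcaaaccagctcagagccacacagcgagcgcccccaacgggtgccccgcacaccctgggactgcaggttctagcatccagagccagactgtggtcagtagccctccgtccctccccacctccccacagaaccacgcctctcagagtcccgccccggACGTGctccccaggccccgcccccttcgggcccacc
Ddit4: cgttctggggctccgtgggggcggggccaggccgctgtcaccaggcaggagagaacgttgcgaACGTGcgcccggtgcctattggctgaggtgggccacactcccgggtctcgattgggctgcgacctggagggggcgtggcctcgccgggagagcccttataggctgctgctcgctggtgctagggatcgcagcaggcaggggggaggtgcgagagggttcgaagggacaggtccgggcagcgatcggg
Pfkp: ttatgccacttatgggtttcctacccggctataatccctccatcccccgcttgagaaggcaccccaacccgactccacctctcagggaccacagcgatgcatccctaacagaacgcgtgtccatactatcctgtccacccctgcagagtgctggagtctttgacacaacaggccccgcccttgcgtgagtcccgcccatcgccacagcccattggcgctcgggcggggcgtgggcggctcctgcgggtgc
Pdk1: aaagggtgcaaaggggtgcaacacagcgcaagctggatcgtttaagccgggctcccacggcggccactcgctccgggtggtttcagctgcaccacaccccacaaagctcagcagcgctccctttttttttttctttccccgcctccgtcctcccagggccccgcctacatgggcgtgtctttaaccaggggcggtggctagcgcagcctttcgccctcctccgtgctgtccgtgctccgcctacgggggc

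The genes spanned a wide range of levels. Per kilobase of merged exons in WT cells of day 9, Ldha and Aldoa led with 1137 and 1081 CPM per kb, followed by Pkm (584), Eno1 (445), Slc2a1 (432) and Pgk1 (155). Pfkp (31.3), Pdk1 (22.8), Hk2 (10.3) and Ddit4 (0.69 CPM per kb) were far lower. The first 6 had a read in at least 99% of the 486 cells, whereas Ddit4 had one in 27.2%. In 3BKO cells of day 9 the transporter Slc2a1 stood at 1498 and 1060 CPM per kb in the batches, beside 1984 and 970.4 for Aldoa and 1605 and 873 for Ldha, so that its place among the 3 changed with the batch. In WT it stood at 422 and 449.9 CPM per kb, below both in each batch. Merged exon lengths include rarely used exons, above all for Pfkp (13401 bases), so levels per kilobase of that gene are low estimates. On GRCm38, the genes lie at chr4:119108711-119137983 (Slc2a1, + strand), chr6:82725025-82774454 (Hk2, - strand), chr13:6579768-6648777 (Pfkp, - strand), chr7:126795234-126800751 (Aldoa, - strand) and chrX:106187100-106203699 (Pgk1, + strand). The others lie at chr4:150236721-150248879 (Eno1, + strand), chr9:59656368-59679375 (Pkm, + strand), chr7:46841475-46855627 (Ldha, + strand), chr2:71873224-71903858 (Pdk1, + strand) and chr10:59949669-59951834 (Ddit4, - strand). Counts of some of the genes may be affected by others: 748 exon bases of Pfkp lie also in Pitrm1 and 767 of Pkm in the gene model Gm49759, and Aldoa, Pgk1, Eno1 and Ldha have named near copies.

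**Figure D1:**
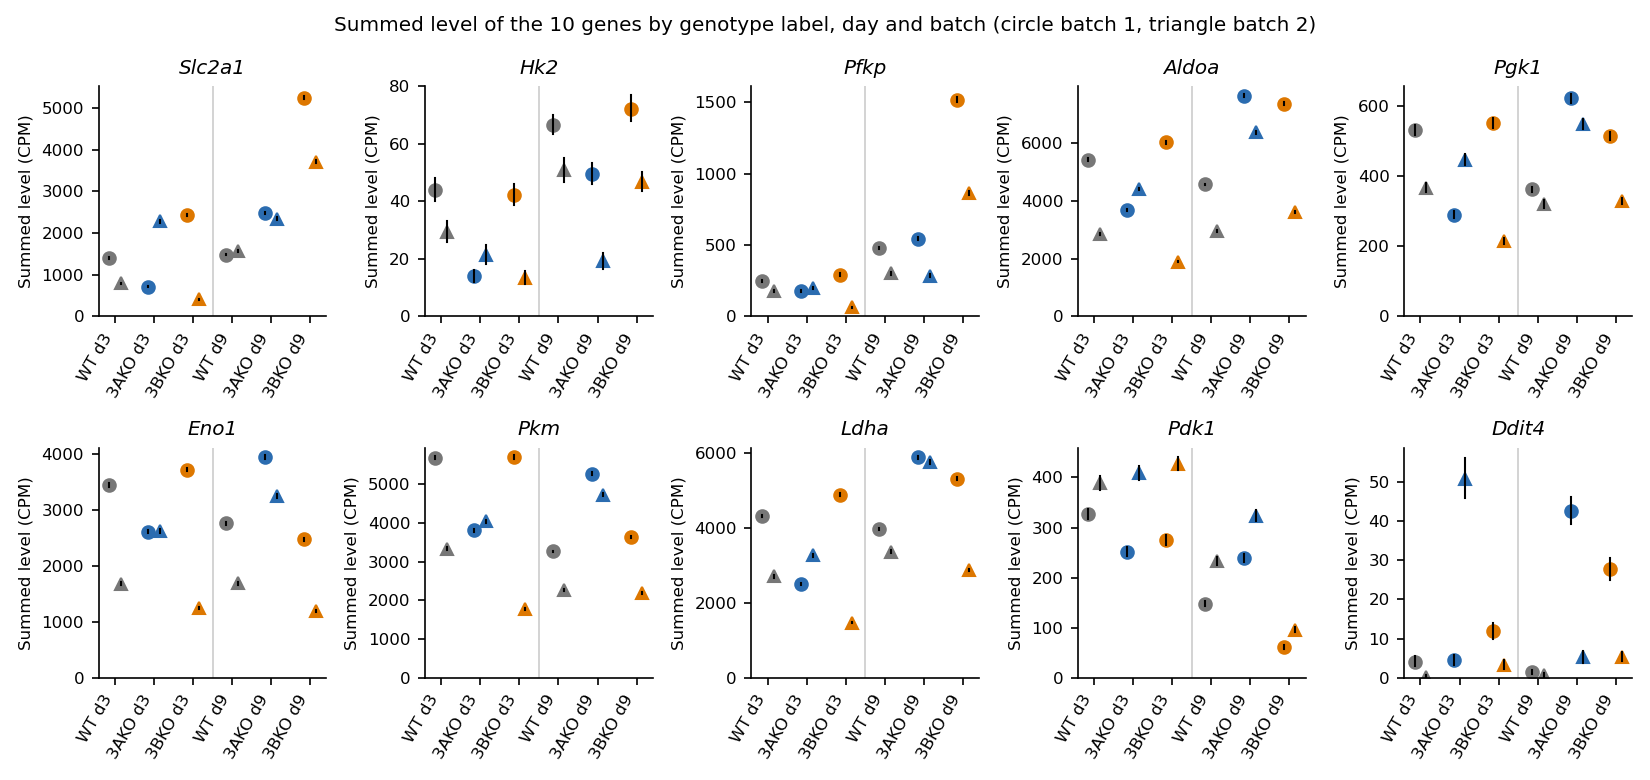
Summed level of each gene in CPM (vertical axes, from 0) by genotype label and day (horizontal axes), with circles for batch 1, triangles for batch 2 and black bars for the 95% Poisson interval. At day 9 Slc2a1 and Pfkp are highest in 3BKO and Pdk1 is lowest there, while at day 3 the mutant symbols change order between the batches in every gene other than Pdk1.

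Cells lacking Dnmt3a were compared with WT at day 9. A gene was tested when, in each batch, 20% or more of the cells of 1 of the genotypes had a read of it. A tested gene was called when it differed at least 1.5-fold in the same direction in both batches. In 3AKO cells 4 of the 10 genes were called higher (Aldoa, Pgk1, Pkm and Ddit4) and 0 lower. Of all 9201 genes tested, 3.65% were called higher and 5.96% lower. The median log2 ratio of the 10 genes was 0.66, and that of all genes tested was -0.10. Irrespective of size, 8 of the 10 were above WT in both batches, against 23.9% of all genes.

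Among the enzymes of the later steps, Aldoa, which splits fructose bisphosphate, stood at 7634 and 6369 CPM in 3AKO cells (batch 1 and batch 2) against 4569 and 2947 CPM in WT. This was a log2 ratio of 0.83 (95% interval 0.81 to 0.84), with 0.74 and 1.11 within the batches. Both 3AKO values lay above both WT values. Pgk1, which makes the first ATP of the pathway's second phase, had 622 and 549 CPM against 362 and 320 CPM, a log2 ratio of 0.77 (0.72 to 0.81). Pkm, the last enzyme before pyruvate, had 5272 and 4729 CPM against 3264 and 2264 CPM, a log2 ratio of 0.79 (0.77 to 0.81). In both genes the batches did not overlap between the genotypes either. The share of all genes tested without such overlap was not computed, here or for the genes below. Of the 88 3AKO cells, 76 (86.4%, exact interval 77.4 to 92.8%) had more Aldoa than the median WT cell of the same batch, 73 more Pgk1, 74 more Pkm and 75 more Ldha, so that the shift was spread over most cells. Single WT cells ranged from 349.8 to 10340.1 CPM of Aldoa with a median of 3876 CPM, and 3AKO cells from 287 to 15549 CPM with a median of 6933 CPM.

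Eno1, Ldha, Slc2a1 and Pdk1 lay above WT by similar amounts and missed the call by 1 batch each. Ldha had 5885 and 5758 CPM in 3AKO cells against 3969 and 3373 CPM in WT, with log2 ratios of 0.57 and 0.77 in the batches. For Eno1 the batches gave 0.51 and 0.94, for Slc2a1 0.75 and 0.57, and for Pdk1 0.70 and 0.47. Of the 88 3AKO cells, 69 had more Eno1 than the median WT cell of their batch, 59 more Slc2a1 and 43 (48.9%) more Pdk1. For Pdk1 the summed difference was thus not seen in most cells, and 1 cell held 27.7% of its reads in 3AKO batch 2. Under TMM (trimmed mean of M values) and median-ratio scaling of the libraries, Slc2a1 and Ldha were called as well, which made 6 genes. Of all genes, 3.86% were then called higher and 5.49% lower under TMM, and 4.03% and 5.24% under median-ratio scaling. Those scalings moved the median over all genes from -0.10 to -0.02 and -0.03.

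Hk2 and Pfkp, which act at the entry of the pathway, did not share this shift. Pfkp had a log2 ratio of 0.06 (0.18 in batch 1 and -0.08 in batch 2). Hk2 stood at 49.7 and 19.2 CPM in 3AKO cells against 66.7 and 50.9 CPM in WT, log2 ratios of -0.42 and -1.36, and was not called.

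Ddit4 was rare and uneven. It had 42.6 and 5.25 CPM in 3AKO cells against 1.49 and 0.67 CPM in WT, a log2 ratio of 3.67 (3.31 to 4.02). In 3BKO cells it had 27.8 and 5.29 CPM, a log2 ratio to WT of 2.92 (2.54 to 3.28). All mutant values lay above both WT values, a pattern that was not counted over all genes. Few cells carried these values: a single cell held 35.4% of the reads in 3AKO, 45.2% in 3BKO and 57.1% of the 42 reads in WT. After thinning every cell to 50000 reads, Ddit4 was seen in 21.6% of 3AKO cells (13.5 to 31.6%), 19.4% of 3BKO cells (10.8 to 30.9%) and 2.25% of WT cells (0.27 to 7.88%). Without the cell with the most reads in each group and batch, the log2 ratios were 3.63 and 2.52. The Ddit4 call was lost in both mutants with thinned cells, with a pseudocount of 10 CPM and with detection required in 40% of cells.

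**Figure D2:**
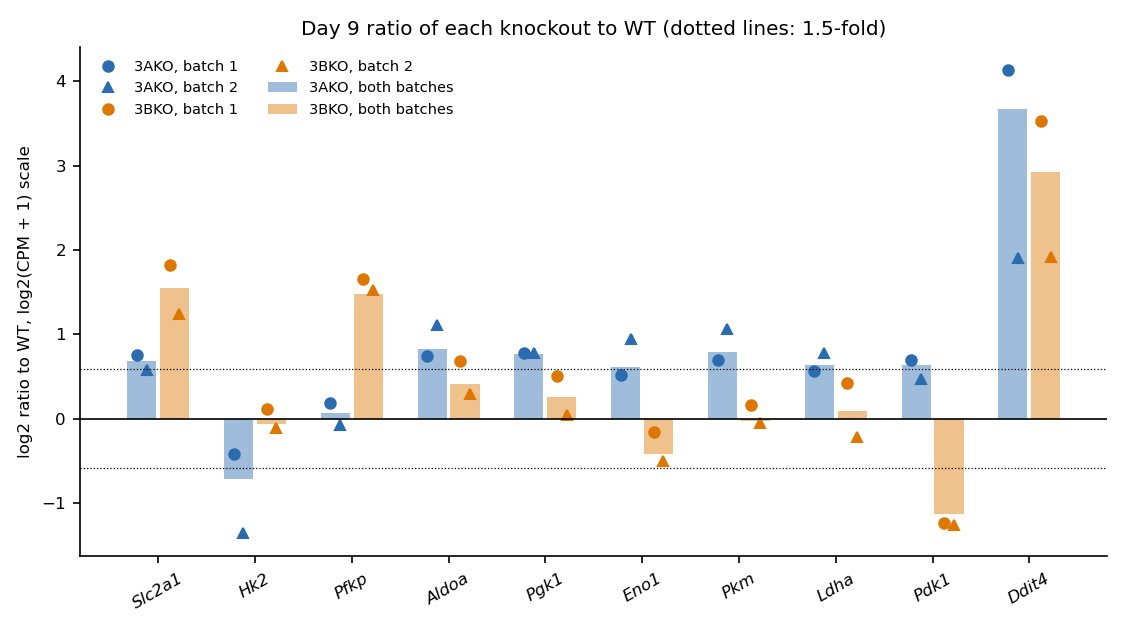
Log2 ratio of 3AKO (blue) and 3BKO (orange) to WT at day 9 for each gene, with bars for both batches summed, circles for batch 1, triangles for batch 2 and dotted lines at 1.5-fold. In 3AKO 8 genes lie above WT in both batches, whereas in 3BKO Slc2a1, Pfkp and Ddit4 stand apart upwards and Pdk1 downwards.

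The cells lacking Dnmt3b were compared with WT in the same way. In 3BKO cells 3 of the 10 genes were called higher than in WT (Slc2a1, Pfkp and Ddit4) and 1 lower (Pdk1). Of all 9235 genes tested, 7.51% were called higher and 12.5% lower. The median log2 ratio was 0.17 for the 10 genes and -0.08 for all genes tested.

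Slc2a1, the glucose transporter, stood at 5252 and 3718 CPM in 3BKO cells against 1481 and 1577 CPM in WT, a log2 ratio of 1.55 (1.53 to 1.57), or 1.83 and 1.24 in the batches. All 67 3BKO cells had more of it than the median WT cell of their batch. They ranged from 1378 to 13638 CPM with a median of 3871 CPM, and WT cells from 0 to 7155 CPM with a median of 1105 CPM. Pfkp, the platelet-type phosphofructokinase, had 1519 and 867 CPM against 480.3 and 302 CPM, a log2 ratio of 1.48 (1.44 to 1.52). It exceeded the WT median in 65 of 67 cells. Single 3BKO cells ranged from 79.4 to 4393 CPM with a median of 1143 CPM, and WT cells from 0 to 2632 CPM with a median of 269.9 CPM. For both genes the batches of 3BKO lay above both batches of WT, and the share of all genes that do so was not computed.

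Pdk1 went the other way. It had 61.9 and 96.4 CPM in 3BKO cells against 148 and 233 CPM in WT, a log2 ratio of -1.13 (-1.22 to -1.04), and its median cell stood at 1.94 CPM against 136 CPM. In thinned cells it was seen in 35.8% of 3BKO (24.5 to 48.5%) and 68.5% of WT cells (57.8 to 78%). The 3BKO values were below both WT values, which was likewise not counted over all genes.

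The enzymes between phosphofructokinase and lactate differed less from WT in the summed reads of 3BKO cells, as did Hk2. Aldoa had a log2 ratio of 0.41 (0.69 in batch 1 and 0.29 in batch 2), Pgk1 0.26 and Ldha 0.09. Cell by cell the picture differed for Aldoa and Ldha: 55 of 67 3BKO cells (82.1%) had more Aldoa and 53 (79.1%) more Ldha than the median WT cell of their batch. The median cell had 3748 CPM of Ldha in 3BKO and 2589 CPM in WT. Pkm stood at -0.03, Hk2 at -0.06 and Eno1 at -0.42 (-0.16 and -0.50). None of these 6 was called, and the batches of Pkm, Hk2 and Ldha differed in sign.

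**Figure D3:**
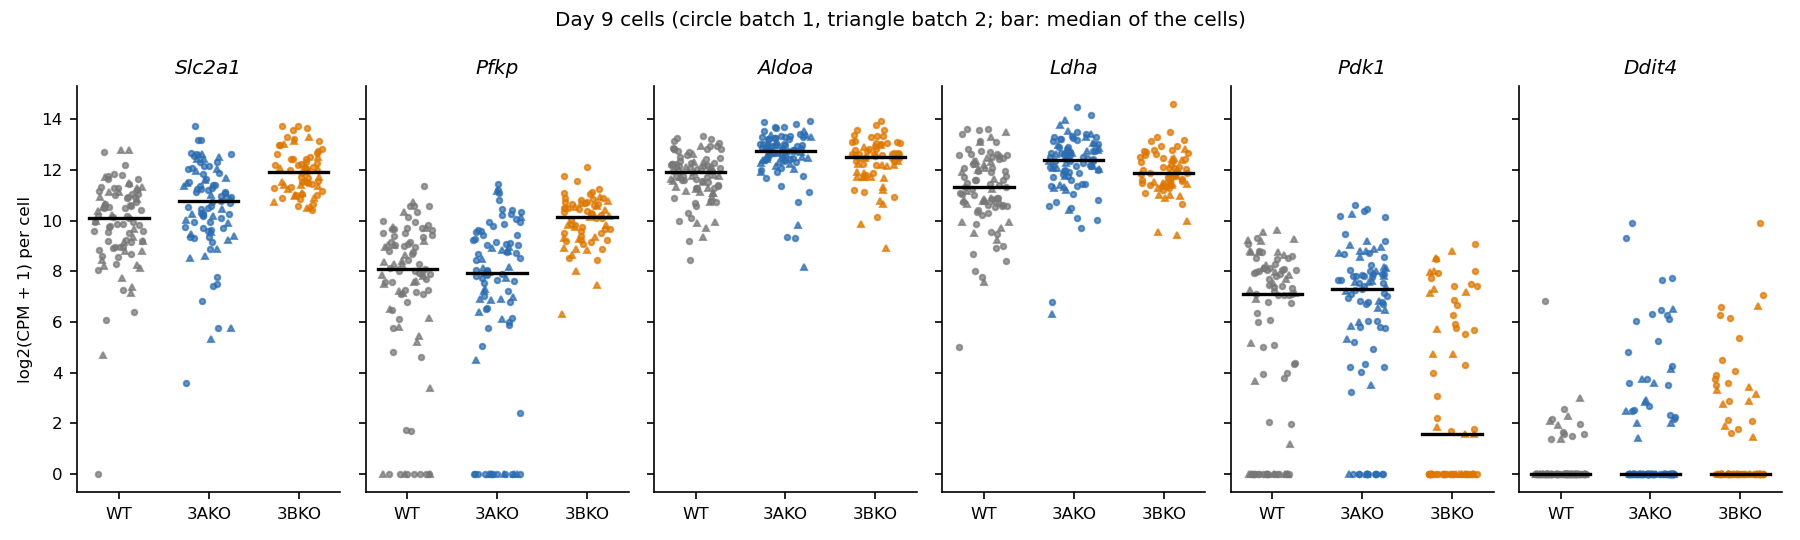
Log2(CPM + 1) of 6 genes in each day 9 cell (points; circles batch 1, triangles batch 2), with a bar at the median cell of each genotype. Most 3BKO cells lie above the WT median in Slc2a1 and Pfkp, and many have no Pdk1 read. In Aldoa and Ldha most cells of both mutants lie above the WT median.

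Set directly against each other at day 9, 3BKO cells were called higher than 3AKO cells in Slc2a1 (log2 ratio 0.87) and Pfkp (1.42) and lower in Eno1 (-1.03) and Pdk1 (-1.76). Of all 9152 genes tested, 11.2% were called higher and 11.5% lower. Slc2a1 was at 4429 CPM in 3BKO and 2428 CPM in 3AKO cells over both batches, and Pdk1 at 80.4 and 274 CPM. Both comparisons with WT use the same WT cells. At day 9 each genotype lay on a plate of its own, so plate, culture and genotype cannot be told apart.

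The other genes of the pathways were taken from lists written by name. The counts of all lists at day 9 are to be read beside the shares of all genes called against WT. These were 3.65% higher and 5.96% lower in 3AKO, and 7.51% higher and 12.5% lower in 3BKO. Of 17 further glycolysis genes, 12 could be tested in 3AKO against WT at day 9 and 4 were called higher: Gpi1, the isomerase after hexokinase (1225 against 623 CPM, log2 ratio 0.97), Aldoc (0.88), Gapdh (0.74) and the lactate exporter Slc16a3 (1.00). None was lower, and the median over the 12 was 0.45. In 3BKO 13 could be tested and 2 were called higher, the second glucose transporter Slc2a3 (1170 against 505 CPM, log2 ratio 1.21) and the hexokinase Hk1 (15.1 against 1.81 CPM, 2.52). The median over the 13 was 0.32.

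Of 18 hypoxia targets outside glycolysis, 13 could be tested in each mutant. In 3AKO cells Bnip3, a mitophagy receptor (252 against 106 CPM, log2 ratio 1.24), P4ha2, a collagen prolyl hydroxylase (1.12), and Ndrg1 (1.53) were called higher and the histone demethylase Kdm3a (-0.66) lower. In 3BKO cells P4ha1 (0.85), Ankrd37 (1.88) and the adenylate kinase Ak4 (1.46) were called higher and none lower. The median was 0.27 in 3AKO and 0.30 in 3BKO. Of the HIF pathway itself, 7 of 8 genes could be tested. Egln3, an oxygen sensor that marks HIF for degradation and is itself a HIF target, was called higher in both mutants (0.76 in 3AKO and 1.20 in 3BKO), and Hif1an, a HIF inhibitor, lower in 3AKO (-0.91). Hif1a had 82.9 CPM in 3AKO and 104 CPM in 3BKO cells against 148 CPM in WT, with 0.04 and -1.92 in the batches of 3AKO and -0.09 and -1.11 in those of 3BKO, and was not called.

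Of 12 genes of mitochondrial pyruvate use, 10 could be tested in each mutant. Pdk2, a sister kinase of Pdk1, was called lower in 3AKO (5.07 against 21.3 CPM, log2 ratio -1.88) and in 3BKO (10.00 CPM, -1.02), and no other gene of the list was called. Among 7 genes near Ddit4 in function, Txnip, which restrains glucose uptake, was called lower in 3AKO (18.5 against 115 CPM, -2.58) and higher in 3BKO (219 CPM, 0.92), and Ddit4l, a relative of Ddit4, higher in 3BKO (102 against 29.1 CPM, 1.77). Of the stress genes, the ATF4 list gave Atf4 (0.91) and Asns (1.15) of 4 tested genes higher in 3BKO and 0 of 3 in 3AKO. Ddit3 of the same list was at -1.28 and 1.86 in the batches of 3BKO and was not called. The p53 list gave Cdkn1a (0.53), Mdm2 (1.39) and Trp53inp1 (1.34) of 4 higher in 3BKO and 0 of 4 in 3AKO. Genes of the response to cell dissociation gave Fos higher in 3AKO (2.39, 1 of 5 tested) and Junb lower in 3BKO (-0.86, 1 of 6).

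Marker genes of cell types moved in the same contrasts. In 3AKO cells of day 9, Zfp42, a gene of naive pluripotency, was called lower (-1.06) among the 8 epiblast markers. In 3BKO cells of day 9 the epiblast markers Nanog (0.84) and Zfp42 (1.24) were called higher and Fgf5 (-4.32) and Pim2 (-4.69) lower. The 8 markers summed to 4937 CPM in 3BKO, 3747 CPM in WT and 3586 CPM in 3AKO. Zfp42 alone held 2269, 963 and 461 CPM of these sums, so their order rests on that gene. Of the 8 ectoderm markers, Sox2 (0.92) and Otx2 (0.79) were higher and Sox11 (-2.04) lower in 3BKO, and Sox1 and Nes had 0 reads. Their sum was 485 CPM in 3BKO, 366 CPM in WT and 288 CPM in 3AKO. The meso-endoderm markers summed to 31.8 CPM in 3BKO, 53.8 CPM in WT and 75.7 CPM in 3AKO. At 0 reads were T, Mixl1 and Foxa2 in 3BKO, Mixl1 in WT and Kdr in 3AKO. Eomes alone held 30.5 CPM of the 3BKO sum and stood at 12.1 CPM in WT and 9.10 CPM in 3AKO. Set against WT, 3BKO cells differed in Eomes by 0.01 in batch 1 and 2.33 in batch 2 (log2), and the gene was not called. Of the 7 extra-embryonic and blood markers 1 could be tested in 3AKO, Krt18, which was called higher (45.7 against 6.98 CPM, 2.55), and none in 3BKO. They summed to 74.6 CPM in 3AKO, 21.5 CPM in WT and 12.8 CPM in 3BKO, with Cdx2 and Afp at 0 reads in all 3 genotypes. The part of these cell types in the differences of the 10 genes was not tested.

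Several of the 10 genes have sister genes for the same step, and the share of each was computed from length-scaled reads. Hk2 made up 98.0% of Hk1 and Hk2 in WT cells of day 9, 91.5% in 3AKO and 84.7% in 3BKO, so the second hexokinase was most visible in 3BKO. Pfkp made up 24.3% of the 3 phosphofructokinases in WT, 19.2% in 3AKO and 42% in 3BKO (41.6%, 33.9% and 60.3% of reads without length scaling). Pdk1 gave 24.6% of the 4 pyruvate dehydrogenase kinases in WT, 39.97% in 3AKO and 21.5% in 3BKO (49.2%, 66.7% and 44.9% of reads). Ldha gave 61.3% of Ldha and Ldhb in WT, 69.9% in 3AKO and 58.4% in 3BKO (77%, 83% and 74.7% of reads). Over both batches summed, the order of the genotypes was the same on both scales. Shares within each batch were not computed. Set against WT, 3BKO had log2 ratios of 0.42 and -0.22 for Ldha in the batches, and 0.27 and 0.46 for Ldhb. The order of these genotypes in the Ldha share thus turned between the batches. For Pdk1 the ratios were -1.24 and -1.27, and for its sister Pdk3 -0.36 and -1.48. Slc2a1 gave 86.1% to 88.7% of Slc2a1 and Slc2a3 in the 3 genotypes.

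In WT EBs, day 9 was set against day 3 to follow the genes through differentiation. Hk2 and Pfkp were called higher at day 9 and Pdk1 lower, 3 of the 9 genes that could be tested. Of all 10162 genes tested, 15.2% were called higher and 6.8% lower, and the median over all genes was 0.19. Pfkp went from 247 and 177 CPM at day 3 to 480.3 and 302 CPM at day 9 (log2 ratio 0.95), Hk2 from 43.9 and 29.3 to 66.7 and 50.9 CPM (0.69), and Pdk1 from 327 and 389 to 148 and 233 CPM (-0.99). Pdk1 then made up 24.6% of its 4 sister kinases where it had been 50.4% at day 3. Pkm had a log2 ratio of -0.68 and Pgk1 of -0.40, and both were below day 3 in both batches without being called. With TMM scaling, which brought the median over all genes to 0.03 and the calls to 9.23% higher and 11% lower, Hk2 and Pfkp were no longer called and Pkm was called lower. The hypoxia targets Bnip3 (0.76), P4ha1 (1.12), Ankrd37 (1.03) and Fam162a (0.77), 4 of 13 tested, were called higher and none lower. The glycolysis genes Gapdh (-0.83) and Slc16a3 (-0.98) were called lower and Ldhb (0.68) higher. Hif1a (0.97), Pdk2 (1.91) and the pyruvate carrier subunit Mpc2 (0.99) were called higher and Egln3 (-0.73) lower. Beside these, the epiblast markers Nanog (1.37), Zfp42 (0.89) and Pim2 (2.05) were called higher and Pou5f1 (-1.70) lower, and of 5 tested genes of the dissociation response Fos (1.56), Junb (1.06) and Egr1 (2.48) were higher. Their part was not tested.

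In the mutants the day 3 side carries the label doubt of batch 2. By label, Ldha was the 1 gene called higher at day 9 in 3AKO (log2 ratio 1.06, with 9.1% of 9945 genes called higher and 8.48% lower), while in batch 1 alone 8 of the 10 were at least 1.5-fold higher, against 20.8% of all genes, and none that far lower, against 18.4%. In that batch Slc2a1 went from 713 to 2487 CPM, Aldoa from 3674 to 7634 CPM, Ldha from 2494 to 5885 CPM and Pgk1 from 290 to 622 CPM. In 3BKO, Slc2a1 (1.54), Hk2 (0.98) and Pfkp (2.62) were called higher and Pdk1 (-2.08) lower, with 14.5% of 10042 genes called higher and 12.1% lower. In batch 1 alone the same 4 passed 1.5-fold, together with Ddit4 (higher) and Eno1 and Pkm (lower), with 24.3% of all genes higher and 23.7% lower. TMM scaling changed none of these calls over both batches, but moved the share of all genes called to 6.4% higher and 10.9% lower in 3AKO and to 11.5% and 15.1% in 3BKO. In batch 1 of 3BKO, without that scaling, Pfkp went from 293 to 1519 CPM and Pdk1 from 275 to 61.9 CPM. Of the hypoxia targets, 7 of 13 tested in 3AKO and 7 of 12 in 3BKO were called higher at day 9, Bnip3, Bnip3l, P4ha1, P4ha2, Ankrd37 and Higd1a in both, and none lower. Of the dissociation response genes in 3AKO, Fos (4.22), Junb (1.81) and Egr1 (2.52) were called higher, 3 of 5 tested. In 3BKO they were Fos (1.18), Jun (2.14), Egr1 (1.47) and Ier2 (0.76), 4 of 6 tested. Markers moved with these differences. In 3AKO, Krt18 (3.25), Pim2 (3.80), Fgf5 (2.06) and Sox11 (1.20) were called higher and Pou5f1 (-2.10) and Sox2 (-1.41) lower. In 3BKO, Nanog (2.23), Zfp42 (2.42) and Otx2 (1.70) were called higher, and Lefty1 (-2.37), Pim2 (-2.00), Utf1 (-0.90), Pax6 (-1.71) and Sox11 (-1.97) lower. Of the stress lists in 3BKO, 3 of 4 tested ATF4 genes (Atf4 1.68, Ddit3 1.86 and Asns 1.93) and 3 of 4 p53 targets (Cdkn1a 2.15, Mdm2 1.62 and Ccng1 0.95) were higher. In 3AKO, Atf4 (0.84) was higher, Sesn2 (-1.13) was lower and 0 of 4 p53 targets were called. In WT, Atf4 (1.07) and Asns (0.92) of 5 tested ATF4 genes were higher and Sesn2 (-1.11) lower. Cdkn1a (1.04) and Mdm2 (0.64) of 4 p53 targets were also higher in WT. The part of these genes was not tested.

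At day 3 the comparison of mutants with WT depended on the batch. By label, none of the 10 genes was called in 3AKO and 1, Ddit4 (log2 ratio 1.39), in 3BKO, with 3.6% of 10362 and 3.15% of 10236 genes called higher and 1.94% and 2.02% lower. TMM scaling gave 2.88% higher and 2.52% lower for 3AKO. The Ddit4 call rested on 1 WT read in batch 2, and 1 cell held 41.3% of the 3BKO reads in batch 1. It was lost with thinned cells, with a pseudocount of 10 CPM and with detection required in 40% of cells. In batch 1 the cells labelled 3AKO were below WT in 9 of the 10 genes, against 49.5% of all genes. Slc2a1 (-0.98), Hk2 (-1.59), Pgk1 (-0.87) and Ldha (-0.79) passed 1.5-fold, as did 10.6% of all genes downwards and 13.4% upwards. In batch 2 the same label lay more than 1.5-fold above WT in Slc2a1 (1.52), Aldoa (0.64), Eno1 (0.64) and Ddit4 (5.53), where 24.8% of all genes passed upwards and 16.2% downwards. The cells labelled 3BKO turned as well: Slc2a1 was at 0.79 in batch 1 and -0.95 in batch 2, and Pfkp at 0.24 and -1.49.

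Most of these values went with the plate and not with the label. Plate 210 carried the label 3BKO in batch 1 and 3AKO in batch 2, and plate 211 the reverse. Slc2a1 was 2441 and 2283 CPM on plate 210 (batch 1 and batch 2) and 713 and 411 CPM on plate 211. Ldha was 4890 and 3275 CPM against 2494 and 1478 CPM, and Pgk1 551 and 447 CPM against 290 and 215 CPM. Of the 10 genes, 7 were called higher on plate 210 (Slc2a1, Hk2, Pfkp, Aldoa, Pgk1, Ldha and Ddit4) and 0 lower, where 6.7% of all 10382 genes were called higher and 5.48% lower. Eno1 and Pkm were higher on plate 210 in both batches and missed 1.5-fold in batch 1 (0.51 and 0.58, the latter just under the limit), and Pdk1 differed by 0.12 and -0.06. Grouped by label over both batches, 3BKO against 3AKO had 0 of the 10 genes called, but the share of all genes called in that grouping was not computed. Dnmt3a split the same plates, with 587 and 335 CPM on plate 210 and 25.8 and 12.8 CPM on plate 211, and Dnmt3b was called lower on plate 210 (-0.64 and -1.11 in the batches). The grouping by plate was chosen after the values had been seen. Of the Ddit4 reads on plate 210 in batch 2, 86.3% came from 1 cell.

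**Figure D4:**
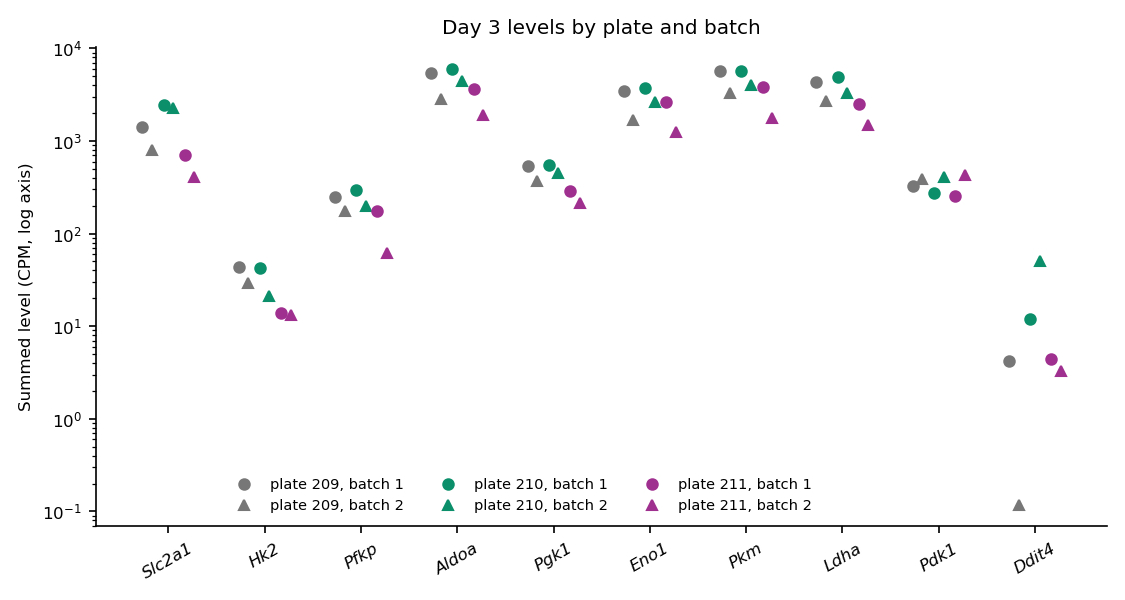
Day 3 level of each gene in CPM (vertical axis, logarithmic) on plate 209 (WT, grey), plate 210 (green) and plate 211 (purple), with circles for batch 1 and triangles for batch 2. Both symbols of plate 210 lie above the symbol of plate 211 of the same batch in every gene other than Pdk1.

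Across single cells, the genes fell into those that varied together and those that did not. Values were log2(CPM + 1), centred within each genotype label, day and batch, so that differences between groups do not enter. The 6 genes with a read in at least 99% of cells (Slc2a1, Aldoa, Pgk1, Eno1, Pkm and Ldha) had a median Pearson's r of 0.54 over their 15 pairs (0.44 to 0.81) across the 486 cells. Within the groups the median was 0.72 in WT and 0.53 and 0.54 in cells labelled 3AKO and 3BKO at day 3, and 0.62, 0.66 and 0.44 in WT, 3AKO and 3BKO at day 9. The closest pair was Eno1 with Pkm (0.81), followed by Aldoa with Pgk1 (0.71). Hk2, Pfkp, Pdk1 and Ddit4 correlated with the mean of the other genes at 0.18, 0.26, 0.25 and 0.13, and they were also the genes with reads in fewer cells (27.2% to 88.1%). Cells of a group share plate and library batch. With every cell thinned to 50000 reads the median over the 15 pairs was 0.53. The mean of the 10 genes had r = -0.35 with the mitochondrial share of reads, or -0.28 with mitochondrial reads left out of the total, and -0.06 with depth.

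**Figure D5:**
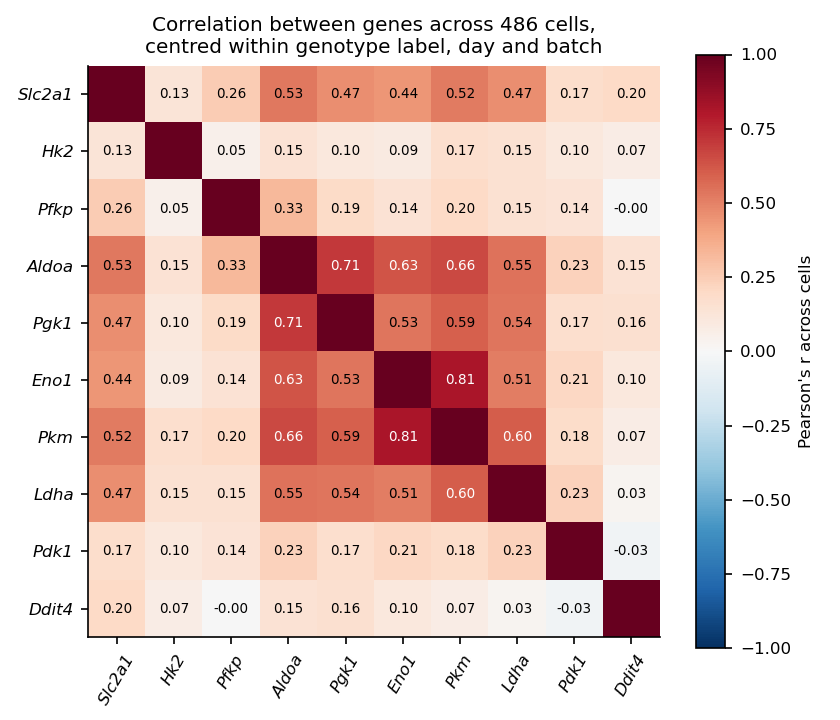
Pearson's r between each pair of genes across 486 cells (colour scale from -1 to 1, value printed in each field) after centring within genotype label, day and batch. Slc2a1, Aldoa, Pgk1, Eno1, Pkm and Ldha form a block of 0.44 to 0.81, and the other 4 genes lie outside it.

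Among the 5639 genes with a read in at least 50% of cells, those most like the mean of the 10 genes were mostly of the same pathway. The 10 highest outside the list were Eno1b (0.72), Tpi1 (0.69), Pfkl (0.68), Pgam1 (0.67), the pseudogene Gm5452 (0.64), Slc16a3 (0.63), Bnip3 (0.61), Gpi1 (0.58), the pseudogene Gm6560 (0.55) and Mif (0.54). The median over all genes was 0.04, with 5% to 95% between -0.07 and 0.18. Eno1b is a near copy of Eno1 (r = 0.97 with it), so reads of 1 of them may have been assigned to the other. Of the other glycolysis genes 11 could be measured, with a median of 0.44 and 8 among the 100 highest, and of the hypoxia targets 8, with a median of 0.34 and 6 among the 100 highest. The 9 measured genes of mitochondrial pyruvate use had a median of 0.04, close to that of all genes. Of the 8 HIF pathway genes only 3 could be measured, with values from -0.11 to 0.08. RNA levels were measured, not glucose use or oxygen.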

How the data were processed

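The authors deposited 1 table of read counts per gene name and cell, with no normalization. According to the study's methods and processing notes, reads were checked with FastQC 0.11.2, trimmed with Trim Galore 0.5.0, aligned to GRCm38 with STAR 2.7.1a and assigned to exons with featureCounts 1.6.1, leaving out reads that map to several places. Whether strand was used in counting is not given in the sources used here, and near copies of a gene can lose reads or take up reads of each other. Of the columns, 26 carried no sample (empty and mini-bulk wells) and were not used.

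Groups were taken from the labels. Counts of kept cells were summed by genotype, day and batch (Python 3.11.15, pandas 2.3.3, scipy 1.17.1) and expressed as CPM, and ratios were taken as differences of log2(CPM + 1), a scale on which changes of low genes come out too small. Positions came from GENCODE M21, which held 97.0% of the names in the table. Upstream sequences came from RefSeq, in which all 10 genes were matched. Functions were tested on simulated data. Alternatives covered cell filters, batches, scaling (edgeR 4.0.16, DESeq2 1.42.0), pseudocounts, thinning, detection and fold limits. The 10 genes and the lists were chosen with earlier results of these data known. All 10 genes and the genes most alike across cells were named. Of the listed genes past the fold, all were named for the day 9 comparisons with WT. For the other comparisons only some were named, as were only some isozymes.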

Additional observations from a re-analysis of the deposited data

Results flagged for a closer look

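A pair of genes went opposite ways from WT in the mutants at day 9, in both batches. Pdk1 was above WT in 3AKO (log2 ratio 0.63, with 0.70 and 0.47 in the batches) and below it in 3BKO (-1.13, with -1.24 and -1.27), a difference of -1.76. In 3AKO 43 of 88 cells (48.9%) and in 3BKO 12 of 67 cells (17.9%) lay above the WT median of their batch. Eno1 was above WT in 3AKO (0.61, with 0.51 and 0.94) and below it in 3BKO (-0.42, with -0.16 and -0.50), a difference of -1.03. From day 3 to day 9, Pgk1 was below its day 3 level in WT (-0.40) and above it in 3AKO (0.75, with 1.10 in batch 1 and 0.30 in batch 2), a difference of 1.16, and Pkm did likewise (-0.68 and 0.37), a difference of 1.05. For this last pair the batch 2 part rests on day 3 cells whose labels are in doubt. With 1 sample for each genotype and day, none of these 4 differences was tested.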

How the results depend on the processing

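No paired analysis was possible because each genotype and day is 1 sample and no result comes from a test. Of 960 values of the ratios of the 10 genes under the alternatives, 57 changed sign, none of them a called ratio, for which the call itself fixes the sign within each batch. Counts of called genes moved by over 1.5 times in these cases, and the cause was not tested. With batch 1 alone they were 5 for day 9 against day 3 in WT, 8 in 3AKO and 7 in 3BKO, and at day 3 they were 4 for 3AKO and 2 for 3BKO against WT, where 10.9% to 27.1% of all genes passed upwards and 8.75% to 23.7% downwards. With batch 2 alone they were, at day 9, 7 for 3AKO against WT and 9 between the mutants, 2 and 7 for day 9 against day 3 in 3AKO and 3BKO, and 4 and 7 for 3AKO and 3BKO against WT at day 3, where 20% to 30.8% passed upwards and 16.2% to 28.5% downwards. At a fold of 2 they were, at day 9, 1 for 3AKO against WT and 2 between the mutants, and 0 for day 9 against day 3 in WT and in 3AKO (1.07% to 5.25% of all genes upwards and 1.59% to 4.91% downwards). With thinned cells they were 2 for day 9 against day 3 in 3AKO, 1 for 3AKO and 0 for 3BKO against WT at day 3. There 2.87% to 9.05% of all genes passed upwards and 2.07% to 8.59% downwards. The mean of single-cell CPM gave 1 for 3AKO at day 3, with 2.96% of all genes upwards and 2.11% downwards. For 3BKO at day 3, a pseudocount of 10 CPM gave 0, with 0.655% of all genes upwards and 0.371% downwards. Detection in 40% of cells also gave 0 there, with 2.14% upwards and 1.31% downwards. Plate 210 against plate 211, an alternative chosen after seeing the data, gave 7 where the labels gave 0, with no share of all genes computed for the labels. Without length scaling, Hk2 made up 97.1%, 88.2% and 79.5% of its isozymes in WT, 3AKO and 3BKO at day 9, Pfkp 41.6%, 33.9% and 60.3%, Ldha 77%, 83% and 74.7%, and Pdk1 49.2%, 66.7% and 44.9%. Of the 10 genes most alike, 9 stayed in the first 10 with thinned cells and 9 with day 9 cells alone. Depth limits Ddit4 most, with 42 reads in WT at day 9.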

Other observations

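The genes outside the correlated block had partners of other kinds across cells. Pfkp was most like Klf2, a transcription factor of naive pluripotency (r = 0.41), and Ifitm1 (0.40). Pdk1 was most like Utf1, a pluripotency gene (0.36), and Enpp3 (0.35). Ddit4 was most like Bnip3 (0.24) and Hk2 most like Kif22 (0.20), both weak. Among genes outside glycolysis, Igfbp2, a carrier of insulin-like growth factors, had r = 0.50 with the mean of the 10 genes, and Upp1, which splits uridine, had 0.43. These are descriptions over 486 cells that share plates and libraries.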
